A study of Saccharomyces cerevisiae with 2 samples.

Results

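The phosphate (PHO) regulon and the acid phosphatases of budding yeast were examined as 10 genes, taken by name from the gene symbols of the array's annotation: the acid phosphatase genes PHO3, PHO5, PHO11 and PHO12, the transporter genes PHO84 and PHO89, and the regulators PHO81, PHO4, PHO80 and PHO85. Of these, 9 had a probe set, out of 5449 S. cerevisiae genes measured. No probe set carried the name of PHO12, which was not analysed here. The cultures compared grew on DR medium (dietary restriction, 0.5% glucose) and, as the control, on AL medium (ad libitum, 2.0% glucose), with 1 Affymetrix GeneChip Yeast Genome 2.0 array for each. Both cultures were the wild-type haploid strain BY4742, of mating type alpha, and both carried the alleles his3Delta1, leu2Delta0, lys2Delta0 and ura3Delta0. Both media held 1% yeast extract and peptone, and cells grew at 30°C for 12 hours to a final density (OD600) between 0.85 and 0.99. The phosphate and thiamine content of the media is not given in the sources used here.

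Yeast cells keep their phosphate supply steady through the PHO pathway. When phosphate is plentiful, the cyclin Pho80 and the cyclin-dependent kinase Pho85 phosphorylate the transcription factor Pho4, which is then kept out of the nucleus. When phosphate is scarce, the inhibitor Pho81 holds the kinase back, and Pho4 enters the nucleus and acts with the homeodomain protein Pho2 on its targets. Among these targets are the secreted acid phosphatases Pho5, Pho11 and Pho12, which free phosphate from organic molecules outside the cell, and the high-affinity transporters Pho84 and Pho89, which carry it inwards. Pho3 is a closely related secreted acid phosphatase with another control, since its gene is known as repressed by thiamine and not by phosphate.

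Values are linear array signals, normalized by the authors' service laboratory, and each gene was compared only with itself between the arrays, because different probe sets differ in brightness. Ratios are those of the signal labelled DR divided by the signal labelled AL. These directions rest on the deposited labels and run opposite to the ratios that the study tabulates for genes such as PHO80, PHO81 and PHO85, so each array is called by its label, and exchanging the labels would turn every direction given here. Each medium had 1 array, so differences have no error estimate, none was tested, and their precision is limited by the number of arrays. In a single culture, a higher signal in every cell and a larger share of cells with the transcript cannot be told apart. Genes that are deleted in BY4742 or silent in alpha cells gave a background level, the highest signal among 9 such genes, of 129.4 on the DR-labelled array and 281.6 on the AL-labelled array. Both levels were the signals of 1 gene, STE6. The next highest, STE2, had 56.6 and 152.6, and the medians of the 9 genes were 24.6 and 57.6. Signals between the STE2 and STE6 values, such as the AL signal of PHO11, are thus under background by STE6 alone. Over all genes the log2 ratio had a median of -0.12.

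The secreted acid phosphatases and the transporter PHO84 had far higher signals on the DR-labelled array, whereas PHO89 and the regulators lay within or near 2-fold. Of the 9 measured genes, 4 exceeded 2-fold towards the DR-labelled array and 1 towards the AL-labelled array. Over all genes, 20.5% were past 2-fold in the first direction and 24.3% in the second, 44.8% in all, so that a 2-fold difference was common on these arrays. The median log2 ratio of the 9 genes was 0.86. Past 3-fold lay 4 of the 9 genes, all of them higher on the DR-labelled array, as were 11.5% of all genes (24.2% in either direction).

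**Figure D1:**
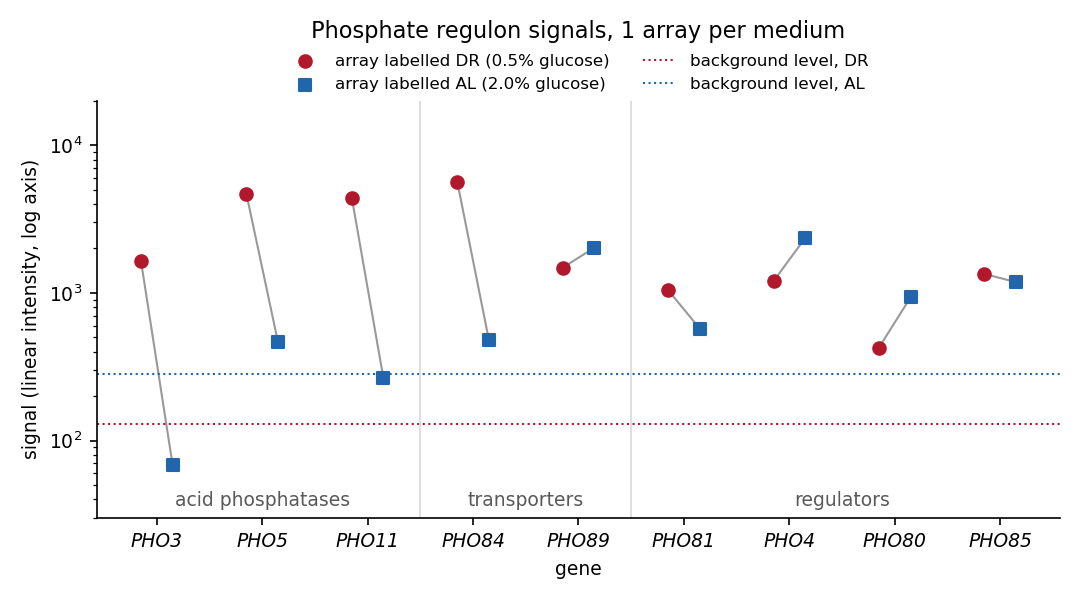
Signal of each measured gene on the DR-labelled array (red circles) and the AL-labelled array (blue squares), on a log axis, with grey lines joining the 2 values of a gene and dotted lines at the background level of each array; there are no error bars, since each point is 1 array. PHO3, PHO5, PHO11 and PHO84 were 10.1-fold to 24.0-fold higher on the DR-labelled array, and the AL signals of PHO3 and PHO11 lay under the AL background level.

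As deposited, PHO3 showed the highest ratio of the regulon. Its signal was 1653 on the DR-labelled array and 68.8 on the AL-labelled array, a 24.0-fold difference. The AL signal lay under the background level of that array, and raised to that level it gave a 5.87-fold difference. Placed among all 5449 genes, PHO3 had the 12th highest ratio as deposited and the 137th with low signals raised on both arrays.

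PHO5, the main phosphate-repressed acid phosphatase, had a signal of 4693 on the DR-labelled array and 465.5 on the AL-labelled array. Both signals lay above background, and the difference was 10.1-fold. PHO11 had 4407 on the DR-labelled array and 264.5 on the AL-labelled array, a 16.7-fold difference. Its AL signal was just under background, and the difference was 15.6-fold with that signal raised. PHO11 and PHO12 are near-identical genes at the ends of different chromosomes, and the PHO11 probe set is of the type that can match several transcripts (its name ends in _s_at). Its signal may therefore hold PHO12 transcripts too, and the share of each gene cannot be told apart.

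The log2 ratio of PHO3 (4.59) exceeded that of PHO5 (3.33) by 1.25. This order depended on the AL signal of PHO3. With that signal raised to background, the PHO3 log2 ratio was 2.55, and the difference from PHO5 became -0.78. PHO3 and PHO5 thus shared a direction, and which of them differed more between the arrays was not settled by these signals. The genes with the ratio nearest to that of PHO3, among genes over background on at least 1 array, were NSA2, MF(ALPHA)2, OGG1, IMD3 and HXK2, with ratios between 22.0 and 25.9. All of these but HXK2 had an AL signal under background, so their ratios, like that of PHO3, have no sure size. Likeness here means the size of a single ratio over 2 arrays.

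DIA3, a gene similar in sequence to the acid phosphatases and linked to invasive growth, stood the other way. Its signal was 152.7 on the DR-labelled array and 2926 on the AL-labelled array, which is 19.2-fold higher on the AL-labelled array. The family of acid phosphatases therefore held both directions, since the 3 measured regulon genes were higher on the DR-labelled array and the related DIA3 was higher on the AL-labelled array.

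The 2 high-affinity phosphate transporters also parted. PHO84, which couples phosphate uptake to protons, had a signal of 5679 on the DR-labelled array and 481.3 on the AL-labelled array, an 11.8-fold difference and the 80th highest ratio of all genes. PHO89, which couples uptake to sodium and works at alkaline pH, had 1482 on the DR-labelled array and 2022 on the AL-labelled array. PHO89 was thus 1.36-fold higher on the AL-labelled array, within 2-fold, and its signals were well above background on both arrays. The log2 ratios of PHO84 (3.56), PHO5 (3.33) and PHO11 (4.06) lay close together, and that of PHO89 (-0.45) lay apart from them.

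**Figure D2:**
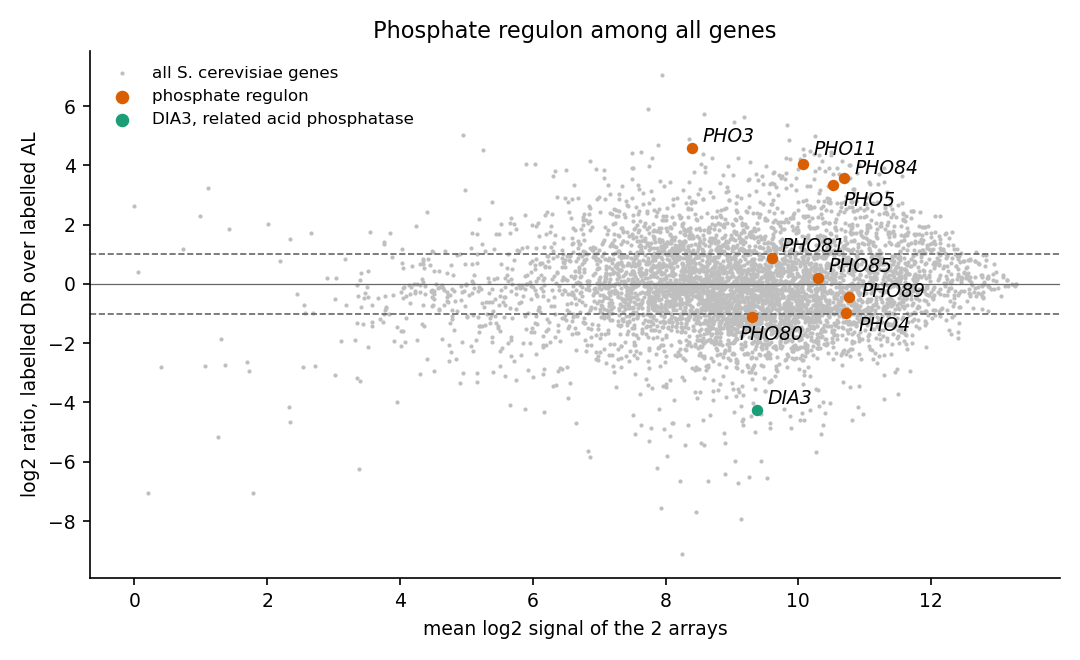
Log2 of the DR-labelled over the AL-labelled signal (vertical axis) against the mean log2 signal of both arrays (horizontal axis) for 5449 genes (grey), with the phosphate regulon in orange and DIA3 in green, and dashed lines at 2-fold. PHO3, PHO11, PHO84 and PHO5 lie at the upper edge of the cloud, the other 5 measured genes lie within it, and DIA3 lies at the lower edge.

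The regulators differed less between the arrays than PHO84 and the acid phosphatases. PHO81, the inhibitor of the kinase and itself a target of Pho4, had a signal of 1045 on the DR-labelled array and 573.5 on the AL-labelled array, a 1.82-fold difference. PHO4, the activator, had 1200 on the DR-labelled array and 2352 on the AL-labelled array, 1.96-fold higher on the AL-labelled array and just within 2-fold. PHO80, the cyclin, had 426.2 on the DR-labelled array and 933.8 on the AL-labelled array, 2.19-fold higher on the AL-labelled array. PHO85, the kinase, had 1344 on the DR-labelled array and 1183 on the AL-labelled array, a 1.14-fold difference. The inhibitor was therefore higher, and the cyclin and the activator lower, on the DR-labelled array, while the kinase was nearly level. Of the 4 regulators, only PHO81 had a ratio that ran in the direction of PHO5, PHO11 and PHO84 by more than 1.5-fold. The positions of PHO80 and PHO81 relative to 2-fold depended on the scaling. With quantile normalization and with the trend on signal removed, PHO80 lay within 2-fold (log2 ratios -0.92 and -0.81) and PHO81 was past it (1.08 and 1.20), so that 5 genes were past 2-fold and higher on the DR-labelled array and 0 on the AL-labelled array.

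A set of 43 other genes of phosphate handling was drawn from textbook roles, and 41 of them had a probe set. Of these, 11 were more than 2-fold higher on the DR-labelled array and 9 on the AL-labelled array, with a median log2 ratio of 0.08. The share past 2-fold, 48.8%, was close to the 44.8% of all genes, and with low signals raised to background 8 genes were past 2-fold in the first direction and 12 in the second. That treatment moved all genes likewise, to 14.1% in the first direction and 32.1% in the second. Median centring gave counts of 12 in the first direction and 7 in the second. The list held groups of different behaviour, which are described by role.

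Polyphosphate is the vacuolar store of phosphate, made by the vacuolar transporter chaperone (VTC) complex, whose genes are also known targets of Pho4. VTC4, the polymerase subunit, had a signal of 4020 on the DR-labelled array and 701.4 on the AL-labelled array, a 5.73-fold difference. VTC3, an accessory subunit, had 3707 on the DR-labelled array and 669.6 on the AL-labelled array, and the difference was 5.54-fold. VTC2, the alternative accessory subunit, had 3543 and 1469 on the DR-labelled and AL-labelled arrays, a 2.41-fold difference. VTC1, the small membrane subunit, was nearly level at 3457 on the DR-labelled array and 2831 on the AL-labelled array. Of these 4 subunits, 3 were past 2-fold in the direction of PHO84 and PHO5, as were 20.5% of all genes, and VTC1 was nearly level. The polyphosphatase genes PPX1 and PPN1, whose products degrade the store, lay within 2-fold and differed in direction. PPX1 had 1100 on the DR-labelled array and 764.8 on the AL-labelled array, and PPN1 had 2542 on the DR-labelled array and 3687 on the AL-labelled array. VTC5 and PPN2 had no probe set named for them and were not analysed here.

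PHM6 and PHM7, genes of less clear function that were named for their response to phosphate, ran opposite ways. PHM6 had 106.3 on the DR-labelled array and 26.3 on the AL-labelled array, both under background. Neither the size of its 4.04-fold difference nor its direction is therefore sure. With both signals raised to background, its log2 ratio of -1.12 is only that of the background levels and says nothing of PHM6. PHM7 had 176.2 on the DR-labelled array and 5060 on the AL-labelled array, 28.7-fold higher on the AL-labelled array, the 35th most extreme ratio in that direction.

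Among the other transport genes, 3 of 8 were more than 2-fold higher on the DR-labelled array and 1 on the AL-labelled array, 4 of 8 in all, near the 44.8% of all genes. PHO86, needed to export Pho84 from the endoplasmic reticulum, had 3473 on the DR-labelled array and 1691 on the AL-labelled array, a 2.05-fold difference. PHO88 (now SND3), a protein of the endoplasmic reticulum, had 4345 on the DR-labelled array and 2027 on the AL-labelled array, a 2.14-fold difference. GIT1, the permease for glycerophosphoinositol, had 137.1 on the DR-labelled array and 33.0 on the AL-labelled array, the AL signal being under background. The AL background level, 281.6, exceeds both signals of GIT1. With the AL signal raised, the log2 ratio of -1.04 is therefore negative by construction and says nothing of its direction. SPL2, whose product holds back low-affinity uptake and whose gene is a known Pho4 target, stood the other way with 607.3 on the DR-labelled array and 1379 on the AL-labelled array, 2.27-fold higher on the AL-labelled array. The low-affinity transporters PHO87 and PHO90, the vacuolar exporter PHO91 and the exporter SYG1 all lay within 2-fold, with log2 ratios between -0.23 and 0.35. High-affinity PHO84 and low-affinity PHO87 and PHO90 thus differed in the size of their ratios.

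Genes whose products release phosphate inside the cell were mixed. PHO13, a nitrophenylphosphatase, had 2748 on the DR-labelled array and 569.9 on the AL-labelled array, a 4.82-fold difference. PHM8, a phosphatase that acts on lysophosphatidic acid and nucleotides, had 727.8 on the DR-labelled array and 1956 on the AL-labelled array, 2.69-fold higher on the AL-labelled array. PHO8, the vacuolar alkaline phosphatase, was nearly level at 2420 on the DR-labelled array and 2179 on the AL-labelled array, in contrast to the secreted acid phosphatases. GDE1, a glycerophosphodiesterase, had 494.8 on the DR-labelled array and 264.5 on the AL-labelled array, the AL signal being under background. DDP1, a diphosphoinositol polyphosphate phosphohydrolase, had 898.1 on the DR-labelled array and 1076 on the AL-labelled array. Both genes lay within 2-fold.

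**Figure D3:**
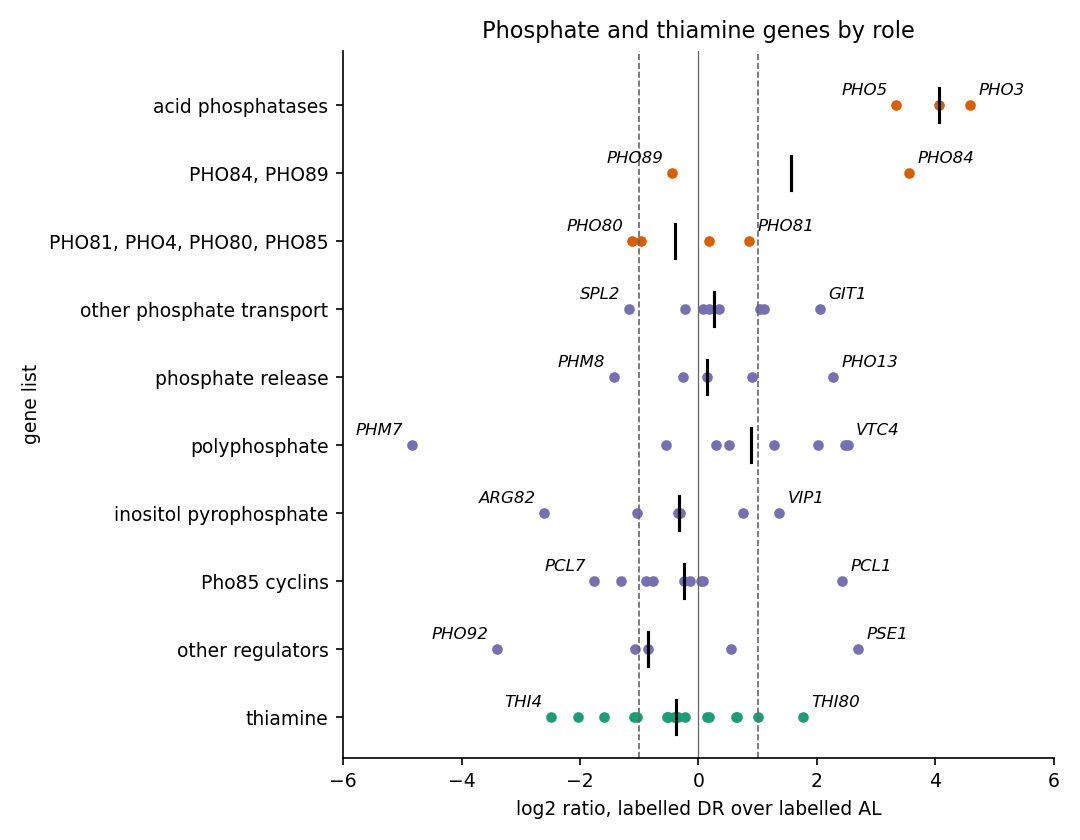
Log2 of the DR-labelled over the AL-labelled signal for each measured gene (points) by role, with the median of each list as a black bar, dashed lines at 2-fold and the lowest and highest gene of each list named. The 3 acid phosphatases lie between 3.33 and 4.59, and the 16 thiamine genes lie between -2.49 and 1.77.

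Inositol pyrophosphates, small molecules that report the phosphate status of the cell, are made by a chain of kinases. The 6 genes listed for these molecules, not all of which encode kinases, differed in direction. ARG82, the inositol polyphosphate multikinase, had 217.6 on the DR-labelled array and 1332 on the AL-labelled array, 6.12-fold higher on the AL-labelled array. The inositol pyrophosphate kinase KCS1 had 468.6 on the DR-labelled array and 957.4 on the AL-labelled array, a 2.04-fold difference in the same direction. With median centring KCS1 lay within 2-fold. VIP1, the other such kinase, stood the opposite way with 2138 on the DR-labelled array and 831.2 on the AL-labelled array, a 2.57-fold difference. The remaining 3 listed genes, PLC1, IPK1 and SIW14, lay within 2-fold, the AL signal of IPK1 being under background.

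Pho80 is one of a family of cyclins that direct Pho85 to different substrates. Of 9 other Pho85 cyclin genes, 1 was more than 2-fold higher on the DR-labelled array and 2 on the AL-labelled array, with a median log2 ratio of -0.25 and a share past 2-fold of 33.3%, against 44.8% of all genes. PCL1, a cyclin of the G1 phase, had 170.8 on the DR-labelled array and 32.0 on the AL-labelled array, the AL signal being under background. The AL background level, 281.6, exceeds both signals of PCL1. With the AL signal raised, the log2 ratio of -0.72 is therefore negative by construction and says nothing of its direction. PCL7, which like Pho80 pairs with Pho85 under the control of Pho81, had 710.7 on the DR-labelled array and 2401 on the AL-labelled array, 3.38-fold higher on the AL-labelled array. PCL5, which directs Pho85 to the activator Gcn4, had 628.2 on the DR-labelled array and 1562 on the AL-labelled array, a 2.49-fold difference. The cyclins PCL8 and PCL10, which act in glycogen metabolism, were lower on the DR-labelled array by less than 2-fold, with log2 ratios of -0.76 and -0.89. PHO80, PCL5 and PCL7 thus shared a direction, and that of PCL1 was not settled, its AL signal being under background.

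The partners of Pho4 were also mixed. PHO2, which binds DNA with Pho4, had 515.6 on the DR-labelled array and 927.1 on the AL-labelled array, 1.80-fold higher on the AL-labelled array, close to the 1.96-fold of PHO4. PSE1, the importin that carries Pho4 into the nucleus, had 1991 on the DR-labelled array and 306.9 on the AL-labelled array, a 6.49-fold difference. MSN5, the exportin that carries phosphorylated Pho4 out, had 1512 on the DR-labelled array and 1031 on the AL-labelled array, within 2-fold. PHO23, a subunit of the Rpd3 histone deacetylase complex, had 711.3 on the DR-labelled array and 1502 on the AL-labelled array, 2.11-fold higher on the AL-labelled array. With median centring PHO23 lay within 2-fold. PHO92, an RNA-binding protein that affects PHO4 transcript stability, had 25.1 on the DR-labelled array and 266.7 on the AL-labelled array, both under background.

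Since PHO3 is known as a thiamine-repressed gene, 21 genes of thiamine synthesis, uptake and control were set beside it, of which 16 had a probe set. Of these, 1 was more than 2-fold higher on the DR-labelled array and 5 on the AL-labelled array, with a median log2 ratio of -0.38. The share past 2-fold was 37.5%, against 44.8% of all genes. With median centring or quantile normalization the counts were 2 in the first direction and 3 in the second. With low signals raised to background they were 0 and 9. That treatment moved all genes likewise, to 14.1% in the first direction and 32.1% in the second. It sets each gene under background on both arrays, 4 of the 16, to a log2 ratio of -1.12, past 2-fold by construction. THI4, of thiazole synthesis, had 67.7 on the DR-labelled array and 381.3 on the AL-labelled array, 5.63-fold higher on the AL-labelled array, its DR signal being under background. The pyrimidine kinase THI20 had 483.9 on the DR-labelled array and 1027 on the AL-labelled array, and its relative THI21 had 251.2 on the DR-labelled array and 761.3 on the AL-labelled array. THI4, THI20 and THI21 thus stood opposite to PHO3. Among other genes of synthesis, THI6 was 1.44-fold higher on the AL-labelled array. SNZ3 and SNO3 were 1.57-fold and 1.56-fold higher on the DR-labelled array, their AL signals being under background. THI13 was under background on both arrays. PET18 had 70.6 on the DR-labelled array and 289.9 on the AL-labelled array, the DR signal being under background, and THI22 had 226.7 on the DR-labelled array and 461.4 on the AL-labelled array. THI80, which makes thiamine pyrophosphate, was the gene past 2-fold the other way, with 415.4 on the DR-labelled array and 122.0 on the AL-labelled array, the AL signal being under background and the difference 1.48-fold with it raised. The thiamine transporter THI7 had 569.3 on the DR-labelled array and 285.0 on the AL-labelled array, at the edge of 2-fold. The activators THI2, THI3 and PDC2 lay within 2-fold, with log2 ratios between -0.52 and 0.18, THI2 being under background on both arrays. PHO3 had the 12th highest ratio of all 5449 genes, and none of the 16 thiamine genes reached it, as few of all genes did. Of the 16, 10 had a ratio under 1, as had 2959 of all 5449 genes. The other 5 listed genes, THI5, THI11, THI12, SNZ2 and SNO2, carried no probe set of their own name and were not analysed here.

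PHO3 and PHO5 are neighbours on chromosome II, and neither of the genes flanking the pair was more than 2-fold higher on the DR-labelled array. TIM12, next to PHO3, had 101.6 on the DR-labelled array and 326.5 on the AL-labelled array, and PBY1, next to PHO5, had 1045 on the DR-labelled array and 626.4 on the AL-labelled array, within 2-fold. Taking the genes adjacent to all 10 regulon genes, 15 that are not in the regulon were measured. Of these, 4 were more than 2-fold higher on the DR-labelled array and 4 on the AL-labelled array. Over all genes the shares were 20.5% and 24.3%. Neighbours past 2-fold towards the DR-labelled array were TUB3 by PHO84 (3.69-fold), SVL3 by PHO85 (4.68-fold), YHB1 by PHO81 (15.1-fold) and IMD2 by PHO12 (133.1-fold). The AL signal of IMD2, 21.4, was under background. Of the neighbours past 2-fold towards the AL-labelled array, YFR035C by PHO4 was under background on both arrays. The DR signal of TIM12 was also under background. Over the 15 neighbours the median log2 ratio was -0.28. These neighbours were set beside the regulon after its values had been seen. Probe sets named pho1, pho2 and pho4 for genes outside the S. cerevisiae table had signals of at most 1.20 on the DR-labelled array and 9.90 on the AL-labelled array.

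Of 8 other ways of scaling the arrays or treating low signals, 3 could not touch these genes, which had 1 probe set each, signals above the lower background and at least 1 signal above the higher. Raising signals to the higher background touched only PHO3 and PHO11. Under the 5 treatments that changed any value, 0 of 45 values changed sign, 4 crossed 2-fold (PHO80 and PHO81, each with quantile normalization and with the trend removed) and 2 moved by more than 1.5-fold, both for PHO3.

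**Figure D4:**
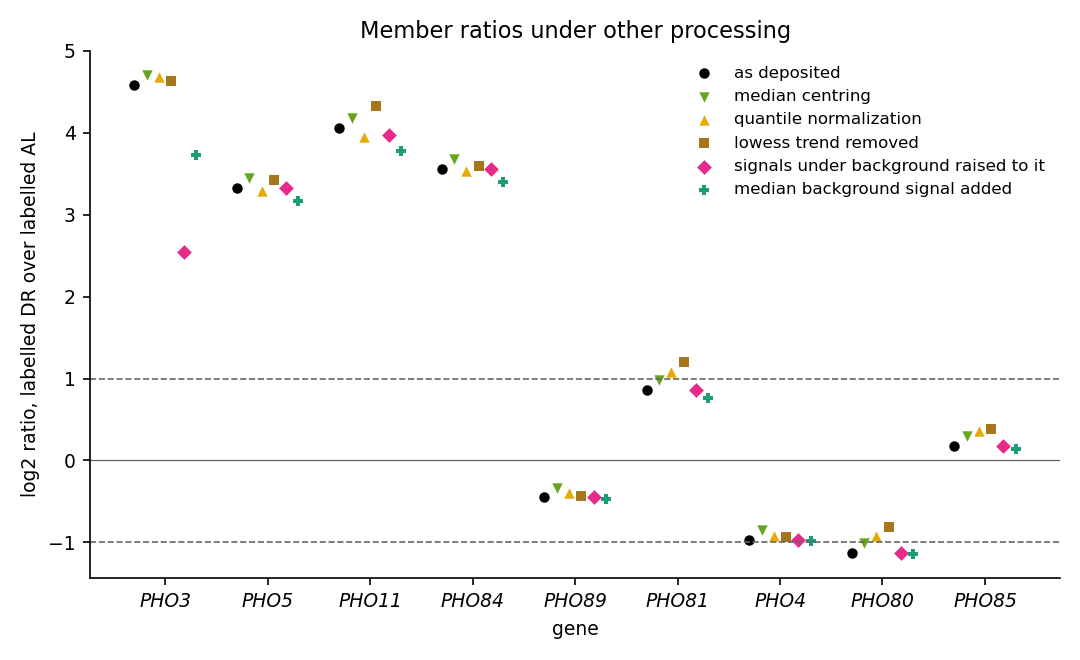
Log2 of the DR-labelled over the AL-labelled signal for each measured gene as deposited (black circles) and under the 5 treatments that changed any of them (other symbols), with dashed lines at 2-fold. PHO3 drops from 4.59 to 2.55 when signals under background are raised to it, PHO5 and PHO84 stay above 3 throughout, and PHO80 and PHO81 cross the 2-fold lines.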

How the data were processed

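Total RNA of 1 culture per medium was hybridized to Affymetrix GeneChip Yeast Genome 2.0 arrays. The authors deposited 1 linear intensity per array for each of 10928 probe sets, normalized with the Affymetrix statistical algorithms by a service laboratory. How the arrays were scaled or centred against each other stays unknown, being not given in the sources used here (medians 48.5 for DR and 55.75 for AL). No scanner files were used here.

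Of the probe sets, 7244 carried 1 gene symbol in the platform annotation, 1 several and 3683 none. A RefSeq gene table (assembly R64) recognised 5498, and their log2 signals were averaged for each of 5449 genes. Each measured regulon gene had 1 probe set. A signal of 0 was set to 0.1. The main threshold was 2-fold, as in the study's methods, with 1.5-fold and 3-fold as alternatives. All 10 regulon genes and the genes of the lists by role may be named, as may the 5 genes nearest PHO3 in ratio. The regulon genes and lists were chosen with earlier results of these data known.

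Background was the highest signal of LEU2, LYS2, URA3, STE2, STE6, MFA1, MFA2, BAR1 and AGA2 on each array, which was that of STE6 on both. A lower level came from 1746 probe sets of genes outside the table (their 95th percentile, 11.7 on DR and 11.5 on AL). Alternatives were median centring, quantile normalization, lowess (span 0.3), both backgrounds as floors, the median background signal added, genes under background left out, and the brightest probe set. The code was tested on simulated data. The tools were Python 3.11.15, matplotlib 3.10.9, statsmodels 0.14.6, numpy 2.4.6 and pandas 2.3.3.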

Additional observations from a re-analysis of the deposited data

How the results depend on the processing

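The count of 5 regulon genes past 2-fold was also 5 under the 5 treatments of scaling and low signals that changed any of their values, 7 at 1.5-fold and 4 at 3-fold. The genes counted were not always the same, since PHO81 replaced PHO80 with quantile normalization and with the trend removed. The difference between the log2 ratios of PHO3 and PHO5, 1.25 as deposited, turned to -0.78 when signals under background were raised to that level, was 0.56 with the median background signal added, and lay between 1.20 and 1.39 under the other 6, of which 4, median centring among them, could not change it. Of the other phosphate genes, 20 were past 2-fold, between 15 and 20 under the 8 treatments and 25 at 1.5-fold, but 11 at 3-fold, where fewer genes pass by construction. The thiamine count of 6 lay between 4 and 9. Median centring moved every log2 ratio by the median of all genes, -0.12, and turned no regulon gene. No paired analysis was possible because each medium had 1 array. Signals under background limit the size of the PHO3 ratio most.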
